A study of Mus musculus with 8 samples.

Results

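The genes described here are the natural killer (NK) cell lectin-like receptor genes, whose symbols begin with Klr, and Ncr1, the gene of the activating NK receptor NKp46. They were chosen by symbol among the 2386 genes of a table the authors made, which gave 17 genes: 16 Klr genes and Ncr1. The table compares liver macrophages of C57BL/6 mice on a western diet (WD, 4 libraries) with those of mice on a normal diet (ND, 4 libraries). Its own group names are WDV and NDV, in which the meaning of V is not given in the sources used here; they are treated as the WD and ND groups. Diet composition, time on diet, age and the way macrophages were isolated are likewise not given in the sources used here. C57BL/6 is a common inbred mouse strain, and each diet had 4 mice, per the series design.

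The table lists a gene only if its unadjusted p was below 0.05 and its change was larger than 2-fold in either direction. All 17 genes had therefore passed both limits before they were chosen here, and their fold changes describe genes that had to be large. The table holds 1 mean and 1 fold change per gene and no value for any single library. The error given with each log2 fold change is the authors' standard error (SE), for 4 libraries against 4, and a gene is called higher or lower in WD at the authors' adjusted p below 0.05.

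NK cells kill infected or altered cells when signals from activating receptors outweigh those from inhibitory ones. In the mouse most of these receptors are lectin-like chains encoded side by side in the NK gene complex on chromosome 6. They include the Ly49 family (Klra genes), which mostly reads class I MHC molecules, and the NKR-P1 family (Klrb1 genes), which reads Clec2 proteins. CD94 (Klrd1) and the NKG2 chains (Klrc genes and Klrk1) are also encoded there. Inhibitory chains carry a tyrosine motif in their cytoplasmic tail, the immunoreceptor tyrosine-based inhibitory motif, which recruits phosphatases. Activating chains lack it and signal through adaptors such as Tyrobp and Hcst. The liver is rich in NK cells and in the related type 1 innate lymphoid cells (ILC1). Some of these receptors are also found on T cells, and a few Ly49 and NKR-P1 chains on myeloid or dendritic cells.

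The start of the coding sequence shows how close 3 Ly49 genes are and where they differ. Only Klra8 among them is activating, so the stretch describes these genes and not the activating and inhibitory kinds. The first 120 bases, counted from the first base of the start codon, are given for Klra8 (Ly49H, activating), Klra3 (Ly49C, inhibitory) and Klra7 (Ly49G, inhibitory), read from GENCODE M21 transcripts, with capitals at the 36 positions where the 3 genes are not all alike.
Klra8 coding start: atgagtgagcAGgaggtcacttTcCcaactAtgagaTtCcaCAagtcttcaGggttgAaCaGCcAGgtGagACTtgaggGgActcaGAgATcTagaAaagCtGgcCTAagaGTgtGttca
Klra3 coding start: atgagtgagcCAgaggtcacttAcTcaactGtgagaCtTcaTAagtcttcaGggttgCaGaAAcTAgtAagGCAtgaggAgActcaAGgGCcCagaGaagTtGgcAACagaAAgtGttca
Klra7 coding start: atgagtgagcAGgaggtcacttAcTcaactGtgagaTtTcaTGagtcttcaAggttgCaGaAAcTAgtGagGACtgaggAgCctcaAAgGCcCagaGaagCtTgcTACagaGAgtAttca
Within this stretch Klra3 and Klra7 differed at 15 positions, whereas Klra8 differed from Klra3 at 30 and from Klra7 at 29. Over the whole coding sequence the order was another one: Klra3 and Klra8 were 90.5% identical, against 76.9% for Klra3 and Klra7. Codon 8 of Klra3 and of Klra7 reads tac, a tyrosine codon inside the inhibitory motif, and in Klra8 the same codon reads ttc. Counted from the first base of the start codon, the substitution from Klra3 to Klra8 there is A23T. The motif was searched in the first 80 translated codons of each protein-coding Klr gene, as isoleucine, leucine, valine or serine, any residue, tyrosine, any 2 residues, and isoleucine, leucine or valine. It was found in 7 of 7 chains taken here as inhibitory, 0 of 5 taken as activating and 0 of 2 partner chains. In 6 of the 7, all but Klri1, the first such tyrosine codon was codon 8. Klri1 had motifs at codons 18 and 49. Roles came from textbook knowledge, in which inhibitory chains carry this motif, so the split between roles is no test.

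Of the 17 genes, 15 were higher in WD and none was lower. In the authors' deposited table the median log2 fold change of the 17 was 1.30, which is 2.46-fold, with a range of 1.01 to 1.87. The median was 1.34 over all 526 listed genes called higher and -1.55 over all 2386 listed genes of that table. Among listed genes 22% were called higher and 61.4% lower. Since every gene here entered through that table, nothing is read from the share of 15 in 17. The whole family gives a second count: of 30 Klr genes in the GENCODE M21 annotation, 16 were listed and 14 of the 30 were called higher (46.7%). None of the 16 listed ones had a negative value, and the other 14 have no value here. Over the 17531 genes the authors tested, a number recovered from their adjusted p-values, 3.0% were called higher and 8.35% lower with a change of more than 2-fold. Which limit the 14 unlisted Klr genes missed, or whether they were measured, is not known. More cells of a type and more RNA per cell cannot be told apart in libraries of this kind.

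**Figure D1:**
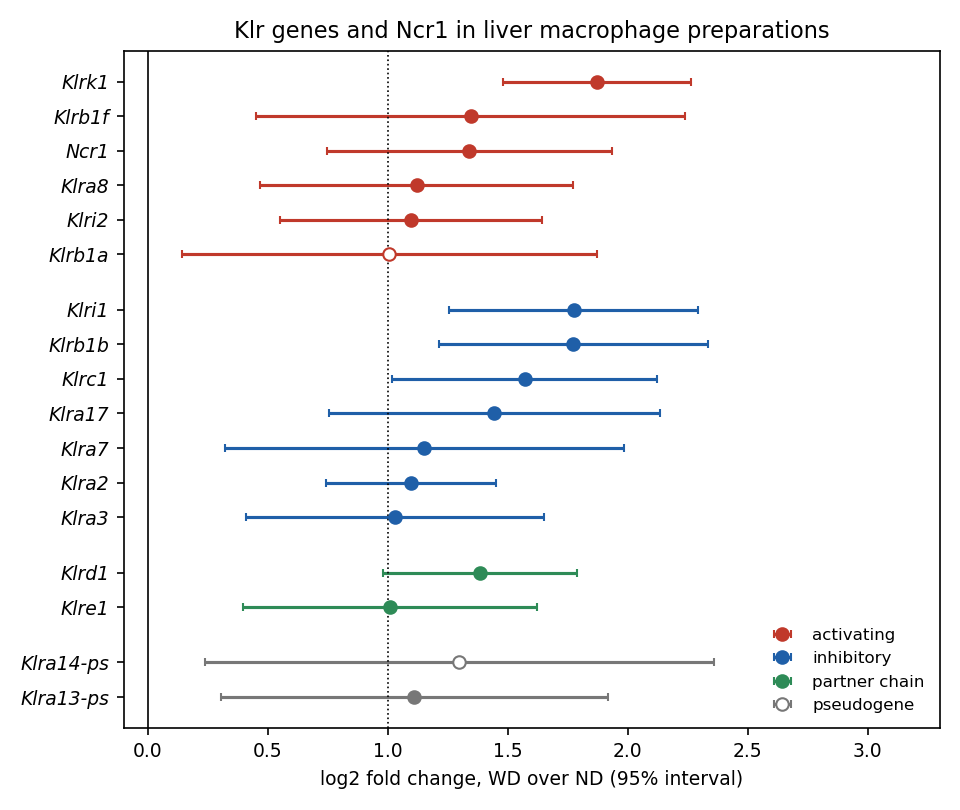
Log2 fold change of WD over ND for the 17 genes (points) with 95% intervals (bars, from the authors' SE), grouped by the role of the encoded chain. Filled points have an adjusted p below 0.05 and the 2 open points, Klrb1a and Klra14-ps, do not; the dotted line marks the 2-fold limit of the table, and intervals lie wholly above it for Klrk1, Klri1, Klrb1b and Klrc1.

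Activating receptors were led by Klrk1, the gene of NKG2D, which recognises stress-induced relatives of class I MHC molecules. In the authors' deposited table Klrk1 (ENSMUSG00000030149, chromosome 6, 129610323 to 129623864, mm10, minus strand) had a mean normalized count of 601 and a log2 fold change of 1.87 ± 0.20 (adjusted p 4.71e-19). That is a 3.66-fold rise with a 95% interval of 2.79-fold to 4.80-fold, the largest among the 17 genes. Its mean and fold change imply about 944 normalized counts in WD and 258 in ND, if the mean is the average of groups of equal size. Ncr1 (ENSMUSG00000062524, chromosome 7, 4337724 to 4345164, plus strand), an immunoglobulin-like receptor that marks NK cells and ILC1, had a log2 fold change of 1.34 ± 0.30 (adjusted p 8.80e-05), per the authors' deposited table. Its implied levels were 60.2 normalized counts in WD and 23.8 in ND. Klra8, the Ly49H receptor that in C57BL/6 mice binds a cytomegalovirus protein, rose by 1.12 ± 0.33 in the authors' deposited table (adjusted p 0.00416). Klri2, whose chain pairs with that of Klre1 to form an activating receptor, rose by 1.09 ± 0.28 (adjusted p 0.000608) in the same deposited table. Of the activating NKR-P1 genes, Klrb1f rose by 1.34 ± 0.46 at a mean of 15.0 normalized counts in the authors' deposited table (adjusted p 0.0141). Klrb1a, at 1.01 ± 0.44 and a mean of 13.8, did not pass there (adjusted p 0.0707). Of the 6 activating genes that the table lists, 5 were called higher, beside 22% of all listed genes, and the median log2 fold change of the 6 was 1.23. As the table's limits chose these 6, and the activating Klra4 is outside it, the count describes the listed genes alone.

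The inhibitory genes with the largest changes were Klri1, Klrb1b and Klrc1. The table lists 7 inhibitory genes, which ran from 1.03 to 1.77 in log2 fold change with a median of 1.44 in the authors' deposited table. Each of the 7 was called higher, beside 22% of all listed genes, but they too were chosen by the table's limits, and Klrg1 and several other Ly49 genes are outside it. Klri1, whose chain pairs with that of Klre1 in an inhibitory receptor, stood at 1.77 ± 0.27 (adjusted p 4.75e-10), with implied levels of 107 normalized counts in WD and 31.3 in ND. Klrb1b, the inhibitory NKR-P1B receptor for the Clec2d protein (ENSMUSG00000079298, chromosome 6, 128813706 to 128826331, minus strand), had the same size of change, 1.77 ± 0.29, in the authors' deposited table (adjusted p 9.67e-09). Its implied levels were 371 normalized counts in WD and 109 in ND. Klrc1, the gene of NKG2A, which with CD94 reads the H2-T23 molecule, rose 2.97-fold in the authors' deposited table (1.57 ± 0.28, adjusted p 3.65e-07). These 3 genes and Klrk1 are the 4 whose 95% intervals lay wholly above 2-fold. That limit was met by 114 listed genes, which are 0.650% of tested genes, beside 526 listed genes called higher. As all 17 genes had first passed the table's limits, nothing is read from the share of 4 in 17.

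Among the inhibitory Ly49 genes the most abundant was Klra2 (Ly49B), which in the mouse is known from myeloid cells more than from NK cells. In the authors' deposited table it had the highest mean of all 17 genes, 883 normalized counts, with a smaller but precise rise of 1.10 ± 0.18 (adjusted p 2.32e-08). The 95% interval of Klra2, 1.67-fold to 2.74-fold, ended below the lower limit of Klrk1, 2.79-fold; the difference between the genes was not tested. Klra17 (Ly49Q), known from plasmacytoid dendritic cells and other myeloid cells, rose by 1.44 ± 0.35 in the authors' deposited table (adjusted p 0.000307). Klra3 and Klra7, the class I MHC receptors whose coding starts are printed above, stood at 1.03 ± 0.32 (adjusted p 0.00589) and 1.15 ± 0.42 (adjusted p 0.0261) in that deposited table. Their implied levels were 47.6 and 30.4 normalized counts in WD, against 23.3 and 13.7 in ND.

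Both partner chain genes in the table were higher. Klrd1 (ENSMUSG00000030165, chromosome 6, 129591782 to 129598775, plus strand) encodes CD94, which NKG2 chains other than NKG2D need to reach the cell surface. It rose 2.61-fold in the authors' deposited table, by 1.38 ± 0.21 on the log2 scale (adjusted p 3.59e-10), with implied levels of 333 normalized counts in WD and 127 in ND. Klre1, the partner of Klri1 and Klri2, rose by 1.01 ± 0.31 in the authors' deposited table (adjusted p 0.00635). Klrc1, which needs Klrd1, was listed, whereas Klrc2 and Klrc3, which also pair with it, are outside the table. The 2 Ly49 pseudogenes of the set lay on either side of the limit: Klra13-ps rose (1.11 ± 0.41, adjusted p 0.0270) and Klra14-ps did not pass (1.30 ± 0.54, adjusted p 0.0548) in the authors' deposited table. Next inside that limit was Klra7 and next outside it Klrb1a.

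Summed over genes, the implied levels were 3782 normalized counts in WD and 1443 in ND. The activating genes added up to 1294 in WD and 416 in ND, a ratio of 3.11, and Klrk1 was the largest part of both sums. For the inhibitory genes the sums were 1972 in WD and 814 in ND, a ratio of 2.42, and Klra2 was the largest part. The median log2 fold changes stood in the other order, 1.23 for the activating and 1.44 for the inhibitory genes. Whether the activating and inhibitory genes differed in their change was not tested. The median SE was 0.21 in the 5 genes with a mean of at least 100 normalized counts and 0.34 in the 12 below it.

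Per length, the order of the levels was another one. Divided by the kilobases (kb) of annotated exon, Klra2 again came first, with 634 implied normalized counts per kb in WD and 296 in ND. Klrd1 followed with 260 per kb in WD and 99.4 in ND, and Klrb1b with 167 per kb in WD and 48.8 in ND. Klrk1, whose annotated exons cover 7183 bases, came next with 131 per kb in WD and 35.9 in ND, close to Klri1 with 128 per kb in WD and 37.3 in ND. Ncr1 stood at 39.1 per kb in WD and 15.4 in ND. At the low end were Klrb1a with 11.5 per kb in WD and 5.74 in ND, and Klrb1f with 10.6 per kb in WD and 4.19 in ND. The spread of these levels over libraries is not known, so neighbours in this order cannot be called different.

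**Figure D2:**
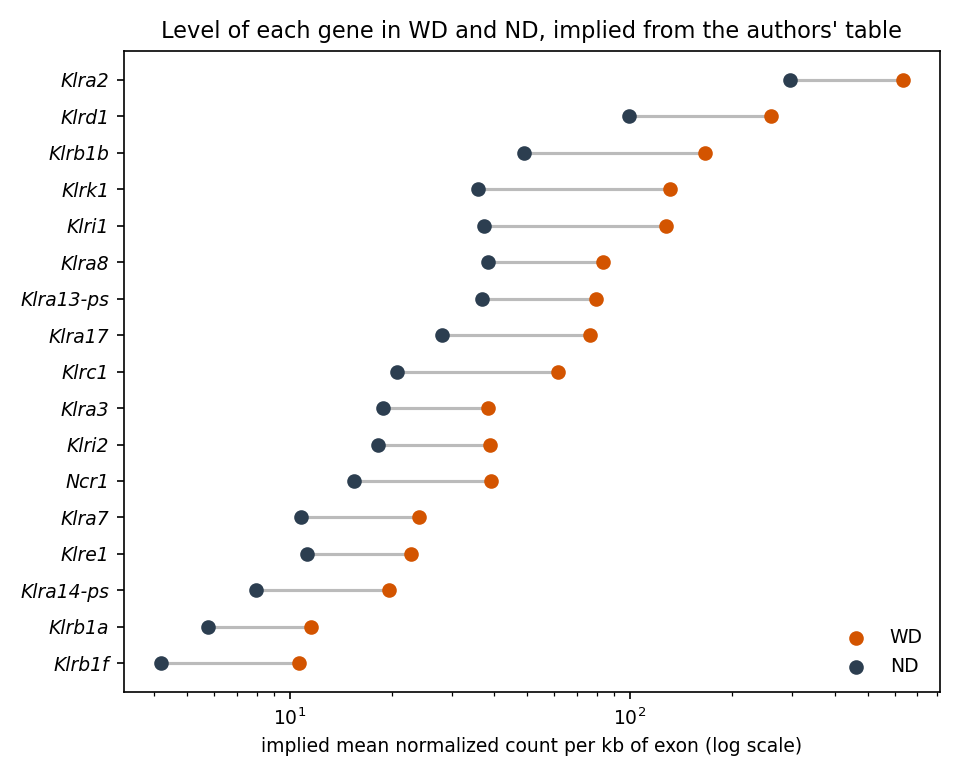
Implied mean normalized count per kb of annotated exon in WD (orange) and ND (dark blue) for each gene, on a log axis, ordered by the mean over both diets. The points are computed from the authors' mean and fold change and carry no error; levels in WD run from 10.6 for Klrb1f to 634 for Klra2.

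By family, 7 of 14 annotated Klra genes and 3 of 6 Klrb1 genes were listed, with 6 and 2 called higher. The median log2 fold change of the listed ones was 1.12 for Klra and 1.34 for Klrb1 genes. Both Klri genes and the single Klrd, Klre and Klrk genes were called higher, as was 1 of 3 Klrc genes. Neither of the 2 Klrg genes was listed, including Klrg1, the cadherin receptor of mature NK and effector T cells. Also outside the table were Klrb1c, the gene of the NK1.1 antigen used to mark NK cells in C57BL/6 mice, and Klra4, the activating Ly49D receptor.

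The Ly49 and NKR-P1 genes arose by duplication, and reads can fit more than 1 of them. For each gene, all stretches of 100 bases in its GENCODE transcripts were looked up in the transcripts of every other gene. Klrk1, Klrd1, Klri1, Klra2, Ncr1, Klra17, Klri2, Klre1 and Klrb1f shared none. Klra8 shared 14.4% of its stretches, mostly with Klra14-ps, and Klra14-ps shared 13.3%, all with Klra8. Klrc1 shared 14.6%, with Klrc2, and their coding sequences are 81.0% identical with a longest common run of 100 bases. Klrb1b shared 22.3% with Gm44511, an annotated gene on the same strand that overlaps 599 of its exon bases and is outside the table. For Klra3, Klra7, Klra13-ps and Klrb1a the share was at most 1.86%. With stretches of 50 bases the highest shares were 38.6% for Klrc1 and 33.1% for Klra8. How the authors treated reads that fit several genes is not given in the sources used here, so the split between these genes is uncertain. Klrk1, Klrd1, Klra2, Ncr1, Klra17 and Klrb1f shared no stretch of 50 bases either.

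The 16 Klr genes lay within 2638 kb of chromosome 6, from 128609227 to 131247362. Of 121 annotated genes in that stretch, 28 are Klr genes and 93 are not, and 7 of the 93 were listed. Of these 7, Clec7a, the fungal glucan receptor dectin-1 of myeloid cells, was by far the most abundant, with a mean of 7981 normalized counts, and rose by 1.05 ± 0.14 in the authors' deposited table (adjusted p 4.82e-13). Distances given here run between the lower coordinates of 2 genes, whatever their strand, and are not the gaps between them. Clec1a, a C-type lectin gene of endothelium, lies 167 kb before Klrd1 by this measure. It had a log2 fold change of -2.34 ± 0.24 (adjusted p 2.33e-20), per the authors' deposited table. The annotated gene 1700101I11Rik, between Clec7a and Klre1, fell by 1.17 ± 0.45 in the authors' deposited table (adjusted p 0.0346). BC035044 (1.37 ± 0.21), Gm15987 (1.08 ± 0.28) and Gm44135 (1.42 ± 0.39) rose in the authors' deposited table, and Clec2f, an annotated pseudogene 31.8 kb from Klrb1f, did not pass (2.76 ± 1.25, adjusted p 0.0835). Gm15987 is annotated as antisense, and whether the counting used strand is not given in the sources used here. Gm44135 lies 1.10 kb from Klri1 by lower coordinates, beyond its 3′ end on the same minus strand, and shares 50-base stretches with Klri2. Beyond the stretch, Tulp3 (-1.70 ± 0.22), 288 kb from Klrb1a, and Tead4 (-1.88 ± 0.46), 385 kb from it, fell in the authors' deposited table. On the other side, Gm5582, 34.3 kb from Klra2, did not pass (1.32 ± 0.62, adjusted p 0.0993). Ncr1 lies on chromosome 7, and the nearest listed gene there, Cdc42ep5 at 186 kb, fell by 2.94 ± 0.42 in the authors' deposited table (adjusted p 4.37e-11). Of the others within 1 Mb of Ncr1, Tsen34 (-1.04 ± 0.19) and Zfp580 (-1.42 ± 0.46) fell in the authors' deposited table, and Oscar (adjusted p empty) and Gm15510 (adjusted p 0.0874) did not pass.

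**Figure D3:**
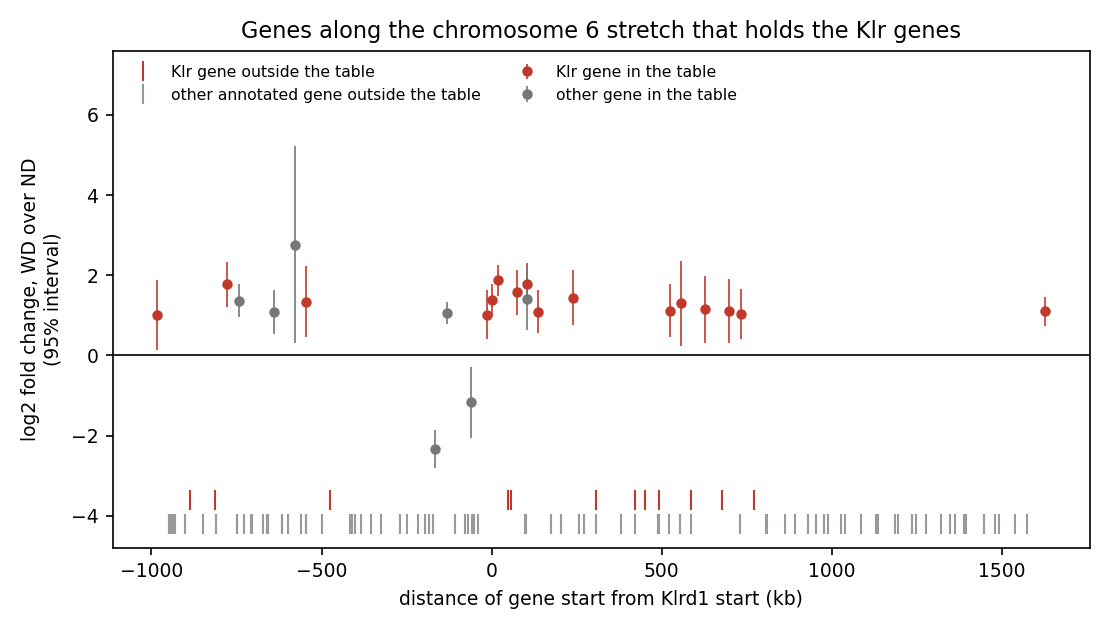
Log2 fold change of WD over ND with 95% intervals from the authors' SE for listed genes of the chromosome 6 stretch, against distance in kb. Distance is that of each gene's lower coordinate from the lower coordinate of Klrd1. Red points are Klr genes and grey points other genes. Ticks at the bottom mark the 12 Klr genes of the stretch and the 86 other annotated genes that are outside the table; all red points lie above 0, and Clec1a and 1700101I11Rik lie below it.

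Promoter sequence was set beside the values of the 17 genes, all of which had positive fold changes. Klr genes outside the table, some of them lying between listed ones, have no value. A link between promoter sequence and change was not tested. RefSeq promoters (GRCm38.p6) were matched by symbol for 13 of the 17 genes; Klrd1, Klri2, Klra13-ps and Klra14-ps had no entry, and where a gene had several entries the first was used. The 250 bases before the annotated start are shown 5′ to 3′ for Klra8, Klra17 and Klra2. These 3 windows had the highest identities when aligned end to end. Capitals mark matches to the motifs named after the sequences.
Klra8 promoter, chr6:130129899-130130148, minus strand: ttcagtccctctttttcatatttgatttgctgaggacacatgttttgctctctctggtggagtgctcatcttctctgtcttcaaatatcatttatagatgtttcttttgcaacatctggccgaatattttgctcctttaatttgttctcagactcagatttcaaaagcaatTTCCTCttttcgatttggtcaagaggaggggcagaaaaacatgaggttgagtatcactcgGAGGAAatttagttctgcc
Klra17 promoter, chr6:129876673-129876922, minus strand: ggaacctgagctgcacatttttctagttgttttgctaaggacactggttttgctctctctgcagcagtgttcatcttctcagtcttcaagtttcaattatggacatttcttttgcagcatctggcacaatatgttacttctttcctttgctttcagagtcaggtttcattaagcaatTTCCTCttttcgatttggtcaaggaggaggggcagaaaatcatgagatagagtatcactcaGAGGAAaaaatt
Klra2 promoter, chr6:131247363-131247612, minus strand: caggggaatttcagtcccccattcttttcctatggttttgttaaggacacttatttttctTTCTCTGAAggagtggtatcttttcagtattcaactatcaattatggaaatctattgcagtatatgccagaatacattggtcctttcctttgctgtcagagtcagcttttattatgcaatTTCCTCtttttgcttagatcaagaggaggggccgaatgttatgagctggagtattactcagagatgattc
Klra8 and Klra17 were 79.6% identical, Klra2 and Klra17 76.4%, and Klra2 and Klra8 72.4%, against a median of 52.4% over all 78 pairs of the 13 promoters. Such identities also depend on where the RefSeq start of each gene lies. The Klra7 window, 130231688 to 130231937, lies inside its GENCODE gene, which ends at 130233322. The Klre1 window, 129577963 to 129578212, also lies inside its gene, which starts at 129577905 on the plus strand. So does the Klrb1a window, 128622935 to 128623184, in a minus-strand gene that ends at 128623533. The motif counts below include these windows. The Klra3 window starts at 130337627, beyond its GENCODE gene end of 130337574, and was 55.2% identical to that of Klra8. Likeness at shifted positions was not measured. Klrk1 and Ncr1, the activating receptors described above, are shown for comparison.
Klrk1 promoter, chr6:129623865-129624114, minus strand: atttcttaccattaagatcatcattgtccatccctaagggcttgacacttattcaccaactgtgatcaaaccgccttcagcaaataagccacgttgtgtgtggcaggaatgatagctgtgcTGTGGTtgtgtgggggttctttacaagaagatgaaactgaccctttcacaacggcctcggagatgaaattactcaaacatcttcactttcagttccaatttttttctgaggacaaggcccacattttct
Ncr1 promoter, chr7:4337465-4337714, plus strand: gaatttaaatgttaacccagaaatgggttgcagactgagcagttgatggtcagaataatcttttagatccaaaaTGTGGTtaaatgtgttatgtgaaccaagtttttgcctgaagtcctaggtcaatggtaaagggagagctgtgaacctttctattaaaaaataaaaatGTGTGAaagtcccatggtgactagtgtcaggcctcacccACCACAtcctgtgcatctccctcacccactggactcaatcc
The motifs searched, on both strands, were GAGGAA (ETS factors), TGTGGT (RUNX factors), TCACAC (T-box factors) and TTCNNNGAA (STAT factors), and each position counted once. GAGGAA was found in 7 of 13 promoters, against 23.1% of 27025 RefSeq promoters cut to the same length, and in all 3 of the Ly49 promoters printed. TGTGGT was found in 5 of 13 (Klrk1, Klrc1, Ncr1, Klre1 and Klrb1a), against 14.2%. TCACAC was found in Ncr1 alone, against 12.2% of all promoters, and TTCNNNGAA in Klra2 and Klra7, against 7.18%. Duplicated promoters are not independent, so these counts describe letters in these windows and are no test.

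**Figure D4:**
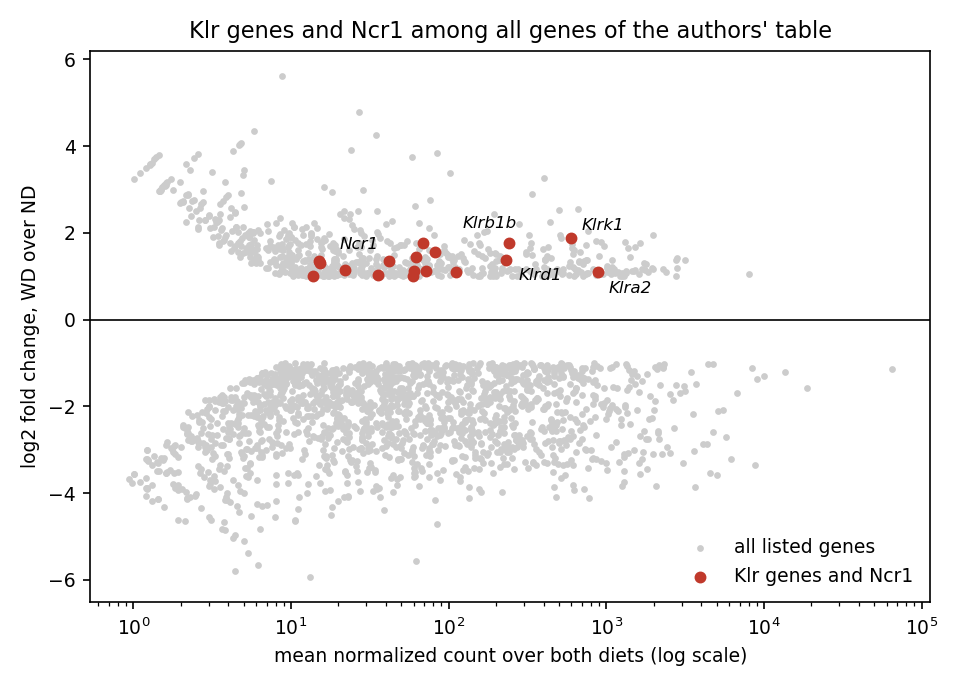
Log2 fold change of WD over ND against the mean normalized count over both diets (log axis) for all 2386 listed genes (grey) and the 17 genes described here (red). The gap around 0 is the 2-fold limit of the table; the red points lie between means of 13.8 and 883 and between log2 fold changes of 1.01 and 1.87.

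The genes around these receptors were followed in lists, whose members were chosen with earlier results of these data known. For each list the counts stand against 3.0% of tested genes called higher and 8.35% called lower. Of 19 other NK surface receptors, Ncr1 included, 9 were called higher and none lower from the authors' deposited table. The smallest adjusted p-values belonged to Havcr2 (1.65 ± 0.16), an inhibitory receptor also used by dendritic cells and macrophages, Slamf7 (1.71 ± 0.19), Tigit (1.83 ± 0.32), which binds nectin-family ligands, Lag3 (1.38 ± 0.25) and Cd7 (1.48 ± 0.28). Of 22 adaptor and signalling genes, 4 were called higher and 1 lower from the authors' deposited table. Sh2d1b1, the EAT-2 adaptor of Slam receptors in NK cells, stood at 1.30 ± 0.26, and the kinase gene Txk at 1.41 ± 0.30, in the authors' deposited table. Sh2d2a, a T cell adaptor, stood at 1.14 ± 0.30. Prkcq, a protein kinase C of T cell signalling, fell by 1.84 ± 0.21 in the authors' deposited table, and Sh2d1a did not pass (1.64 ± 0.67, adjusted p 0.0508). Tyrobp, Hcst, Fcer1g and Cd247, the adaptors that carry the signal of activating receptors, are outside the table.

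Of 21 ligand genes of these receptors, only 2 were listed, and both fell in the authors' deposited table. They were Nectin2 (-1.71 ± 0.20), a ligand of Tigit and Cd226, and Cdh2 (-1.20 ± 0.45), a cadherin bound by Klrg1. The other 19 have no value here, so whether any of them rose is not known. Of the 21 symbols, 18 are in the annotation. H2-T23, read by CD94/NKG2A, and Clec2d, read by NKR-P1B, are outside the table, as are the Raet1, Ulbp1 and H60 genes, whose products bind NKG2D. Genes of cytokine input, which feeds NK cell growth and activation, had 8 of 14 higher and none lower. Il12b (2.43 ± 0.31) and Il12a (1.83 ± 0.57), the subunits of interleukin-12, and its receptor genes Il12rb2 (1.89 ± 0.29) and Il12rb1 (2.23 ± 0.50) rose in the authors' deposited table. Il18bp, which binds and blocks interleukin-18, rose by 1.11 ± 0.18 in the authors' deposited table. Il2rb, the interleukin-2 and interleukin-15 receptor chain that NK cells depend on, rose by 1.42 ± 0.23, and the interleukin-18 receptor genes Il18r1 and Il18rap by 1.10 ± 0.24 and 1.06 ± 0.23, in the authors' deposited table.

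Transcription factors of the lineage were split. Of 16, 5 rose and 2 fell: Stat4 (1.37 ± 0.21), which carries interleukin-12 signals, Runx3 (1.23 ± 0.19), Ikzf3 (1.34 ± 0.29), and the T-box genes Eomes (1.12 ± 0.37) and Tbx21 (1.002 ± 0.33) were higher in the authors' deposited table, while Ets1 (-1.24 ± 0.11) and Tox2 (-2.24 ± 0.31) were lower. Of 19 effector genes 8 rose, 1 fell and 9 are outside the table. The granzyme gene Gzma is outside the table. Gzmc (2.62 ± 0.37), Gzmb (1.51 ± 0.24), the granzyme inhibitor gene Serpinb6b (1.52 ± 0.23), the chemokine gene Ccl5 (1.73 ± 0.29) and the perforin gene Prf1 (1.05 ± 0.27) were among the higher ones in the authors' deposited table. The death ligand gene Tnfsf10, used by liver ILC1 and also by endothelium, fell by 2.77 ± 0.28 in the authors' deposited table. Of 15 homing and marker genes 3 rose and 2 fell. Cxcr6 (2.32 ± 0.40), Ccr2 (1.44 ± 0.20) and Itga2 (1.05 ± 0.32), the CD49b antigen of conventional NK cells, were higher in the authors' deposited table, and S1pr1 (-1.82 ± 0.18) and Itga1 (-2.33 ± 0.26), the CD49a antigen of ILC1 that endothelium also makes, were lower.

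Markers of other cell types moved in the same comparison. T cell markers had 8 of 21 higher and none lower, with implied sums over the 11 listed genes of 337 normalized counts in WD and 129 in ND; Cd3d, Cd3e, Cd3g and Cd4 are outside the table. Ctla4 (2.03 ± 0.45) and Trbc2 (1.66 ± 0.43) had the smallest adjusted p-values of that list in the authors' deposited table. Under a Bonferroni limit the count of 8 became 0, and with a mean of at least 50 normalized counts it became 1. Dendritic cell markers had 4 of 13 higher and 1 lower, with implied sums over the 5 listed genes of 3518 in WD and 1610 in ND. B cell markers had 2 of 10 higher, with Cd79a outside the table, hepatocyte markers 3 of 9 higher, with Alb outside it, and mast cell and basophil markers 6 of 9 higher and 1 lower. The 10 sinusoidal endothelial markers were all lower, with implied sums of 8759 normalized counts in WD and 61740 in ND. None of 13 Kupffer cell and macrophage markers, among them Adgre1, Clec4f and Csf1r, was listed, so the labelled cell type cannot be checked from this table. The part of any of these cell types in the values of the 17 receptor genes was not tested.

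The authors also deposited Gene Ontology (GO) and KEGG terms enriched among genes that are positive in their table. At least 1 of the 17 genes stands in 15 of the 132 GO terms and 4 of the 47 KEGG terms with a Benjamini p below 0.05 in the authors' deposited table. The KEGG term natural killer cell mediated cytotoxicity holds 12 genes (Benjamini p 1.15e-05 in the authors' deposited table), of which 7 are described here: Ncr1, Klrk1, Klrd1, Klrc1, Klra3, Klra7 and Klra8. The GO term for positive regulation of that cytotoxicity holds 15 genes (Benjamini p 3.40e-16 in the authors' deposited table), 6 of them Klr genes. Its negative counterpart holds 4 genes, of which Klrb1b, Klrd1 and Klrc1 are 3 (Benjamini p 0.00826 in the authors' deposited table). The stimulatory C-type lectin receptor term consists of 6 genes, all of them Klr genes (Benjamini p 1.82e-05 in the authors' deposited table), and counts the inhibitory Klrc1 and Klri1 among them. Klra17 and both pseudogenes stand in no term. These terms rest on the fold changes already given and are not further evidence of them.

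Genes most like the receptors in size of change and level were named by the distance in log2 fold change and log2 mean count, over this 1 comparison. Nearest to Klrk1 were Ifi205, Oas3 and Ciita, nearest to Klrd1 were Pparg, Stat4 and Rnase6, and nearest to Klrb1b were Pparg, Tlr9 and H2-M2. Cx3cl1, Fut4 and Stxbp6 were nearest to Ncr1, and Ifi27l2a, Epsti1 and Sp140 to Klra2. Distances for these 5 receptors ran from 0.07 for Klra2 and Ifi27l2a to 0.42 for Klrb1b and H2-M2. Klra17 lay closest to Lag3 and Txk, and Klre1 to Eomes, all 3 from the lists above.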

How the data were processed

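RNA sequencing covered liver macrophages of 4 WD and 4 ND mice, grouped by the diet label. Per the labels' protocols, oligo(dT) beads selected the mRNA, which was primed with random hexamers. Among the tools in the submitters' processing notes are STAR, HISAT2 and featureCounts, then DESeq and edgeR, and the build is mm10; roles and versions are not given. Per the file headers, the deposited signal of a gene is its mean count after normalization over the libraries. Also deposited are the log2 fold change (WD divided by ND), its SE, a score that is the ratio of both, a p-value and an adjusted p-value. The adjusted p was empty for 77 genes, which were not called. Counts and depth of single libraries were not analysed here, so precision is the authors' SE, and no SD, left-out library or other normalization could be computed.

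From these values normal 95% intervals, implied group means and counts of calls were computed (Python 3.11.15, pandas 2.3.3). The implied means take the deposited mean as the average of 2 equal groups. The number of tested genes, 17531, made 91.0% of the ranks behind the adjusted p-values whole within 0.02; the step was tested on simulated data. Coordinates, exon lengths and transcripts are from GENCODE M21 (mm10, GRCm38), in which all 2386 IDs were found, and promoters from RefSeq (GRCm38.p6). Alignments used Biopython 1.88.

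The genes named are all members, the listed genes of the adaptor and ligand lists, up to 5 of each other pathway list by adjusted p, up to 6 listed genes within 1 Mb of a member, and the 3 nearest protein-coding genes in fold change and level (given in full for 5 members and in part for 2). Il12a, Il12rb1, Il18rap, Eomes, Tbx21 and Prf1 fall outside this rule and were chosen after their values were seen. Some genes that the rule names are not reported here. Members, roles and lists were chosen with earlier results of these data known; roles come from textbook knowledge. Alternatives were a stricter adjusted p, the unadjusted p, a Bonferroni limit, an interval beyond 2-fold, minimum mean counts of 10 and 50, and a prior with SD 1.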

Additional observations from a re-analysis of the deposited data

How the results depend on the processing

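The count of 15 receptor genes called higher was 12 at an adjusted p below 0.01, 17 at the authors' unadjusted p below 0.05, 15 with a mean count of at least 10 and 11 with at least 50. It was 6 under a Bonferroni limit over 17531 genes (Klrk1, Klrd1, Klri1, Klrb1b, Klra2 and Klrc1) and 4 with the 95% interval wholly beyond 2-fold, both limits being stricter by construction. As all 17 fold changes in the table are positive, none of these settings could call a gene lower. Over all lists together, 74 genes were called higher; the count was 34 under the Bonferroni limit, 23 with the interval beyond 2-fold and 47 at a mean count of at least 50. T cell markers had 8 called higher, 5 at an adjusted p below 0.01, 0 under the Bonferroni limit and 1 at a mean count of at least 50. Of 5 transcription factor genes called higher, 3 passed at an adjusted p below 0.01, 2 the Bonferroni limit and 0 the interval limit, which 0 of 4 adaptor genes passed either. With a prior of SD 1 the log2 fold changes of the 17 genes ran from 0.84 to 1.80, with 5 below 1, the table's own limit, and the largest shift, 0.29, for Klra14-ps; this prior cannot change a sign. No paired analysis was possible because the table holds no value per library, and for the same reason leaving out libraries and other normalizations were not run. Values were least precise for Klrb1a, Klrb1f, Klra14-ps and Klra7, whose SEs were between 0.42 and 0.54 at means of 13.8 to 22 normalized counts; the cause was not tested.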
